A study of Mus musculus with 10 samples.

Results

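Acyl-CoA thioesterases hydrolyse fatty acyl-CoA to a free fatty acid and coenzyme A. The 9 genes described here are Acot1, Acot2, Acot3, Acot4, Acot7, Acot8, Acot9, Acot12 and Acot13, named as a list and found by symbol among the NCBI Gene numbers of a liver count table. All 9 were present among its 27179 genes, and all 9 were among the 15226 genes that passed a filter on low counts. The RNA came from whole livers of male C57BL/6 mice, either Lpcat3f/f (control) or Lpcat3f/f Albumin-Cre (LKO), all on a NASH diet for 12 weeks. Both groups carry the floxed alleles. The albumin promoter drives Cre in hepatocytes. The labels do not state which other liver cells keep Lpcat3. Each group held 5 libraries. The labels state neither age nor diet composition. They also do not say that each library came from a separate animal, so p-values measure the spread between these libraries, which may be partly technical.

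The family works against the acyl-CoA synthetases, which join fatty acids to coenzyme A, and so sets how much acyl-CoA is free for oxidation, esterification or phospholipid remodelling in each compartment. Its members fall into a type I group of closely related alpha/beta hydrolases (Acot1 to Acot6) and a type II group with a hotdog fold (Acot7 to Acot13). Acot1 acts in the cytosol, Acot2 in the mitochondrial matrix, and Acot3, Acot4 and Acot8 in peroxisomes. In liver several type I genes are classical targets of PPARalpha, the nuclear receptor that is activated by fatty acids. Lpcat3, the gene deleted in these hepatocytes, encodes an enzyme that uses polyunsaturated acyl-CoA to reacylate lysophospholipids.

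The type I genes lie side by side on chromosome 12 in the order Acot2, Acot1, Acot4, Acot3, Acot5, Acot6. Their coding sequences are closely related. Over 1236 aligned coding bases, Acot1 and Acot2 were 95.6% identical, while Acot1 was 84.0% identical to Acot3 and 76.6% to Acot4 (GENCODE M21 transcripts). The longest stretch that the Acot1 and Acot2 coding sequences share without a mismatch is 273 bases long and covers bases 887 to 1159 of the Acot1 coding sequence. It is shown because a read of 101 bases from it cannot be assigned to either gene by its sequence.
Acot1 and Acot2: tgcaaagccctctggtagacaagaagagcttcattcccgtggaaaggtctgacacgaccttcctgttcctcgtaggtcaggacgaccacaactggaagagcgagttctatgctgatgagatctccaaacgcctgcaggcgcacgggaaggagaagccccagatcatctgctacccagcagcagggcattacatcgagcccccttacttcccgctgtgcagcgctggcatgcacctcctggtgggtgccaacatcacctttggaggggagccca
Of all windows of 101 bases in the annotated Acot2 transcripts, 17.0% also occur in Acot1, and 16.1% of those in Acot1 occur in Acot2. For Acot3 and Acot4 the shares found in any other family member were 4.22% and 0.318%. No such window was shared for Acot7, Acot8, Acot12 or Acot13, and Acot9 shared 0.787% with Acot10. How the counting treated such reads was not stated, so the split between Acot1 and Acot2 is uncertain.

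Upstream of the genes the copies share little. Within 250 bases before the start, the longest exact stretch shared by Acot1 and Acot2 is 9 bases. These upstream sequences are printed for Acot2 and Acot1, the member pair with the highest correlation over the 10 libraries, and for Acot4, the member with a match to the looser spaced motif below (RefSeq, GRCm38.p6, all on the plus strand, matches in capitals). They cover chr12:83987611-83987860 for Acot2, chr12:84009252-84009501 for Acot1 and chr12:84038129-84038378 for Acot4.
Acot2: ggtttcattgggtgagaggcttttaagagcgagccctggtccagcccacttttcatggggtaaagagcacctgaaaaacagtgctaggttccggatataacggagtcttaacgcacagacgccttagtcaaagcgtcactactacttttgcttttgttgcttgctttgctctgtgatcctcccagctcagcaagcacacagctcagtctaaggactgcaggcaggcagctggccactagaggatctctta
Acot1: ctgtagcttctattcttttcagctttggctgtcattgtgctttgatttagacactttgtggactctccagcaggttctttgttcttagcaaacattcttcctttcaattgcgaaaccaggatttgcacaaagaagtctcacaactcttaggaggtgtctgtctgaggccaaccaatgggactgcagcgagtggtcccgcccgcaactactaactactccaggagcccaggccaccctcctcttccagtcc
Acot4: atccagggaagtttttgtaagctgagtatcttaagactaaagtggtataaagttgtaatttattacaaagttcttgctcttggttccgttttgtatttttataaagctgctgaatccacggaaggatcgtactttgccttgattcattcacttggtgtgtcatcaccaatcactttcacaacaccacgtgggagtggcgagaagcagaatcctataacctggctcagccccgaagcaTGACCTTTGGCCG
PPARalpha binds with RXR to direct repeats of AGGTCA spaced by a single base. A repeat of the unit AGGNCA with 1 base between its copies, read on both strands, had a match in 0 of the 8 member sequences that the RefSeq table holds (Acot13 had no entry) and in 0.333% of 27025 promoters. With the first base left free (NGGNCA, 1 base, AGGNCA), the repeat matched Acot4 alone, at bases -13 to -1, against 0.670% of promoters. The single unit AGGTCA, which overlaps that match in Acot4, also matched Acot12, so 2 of 8 members held it against 13.8% of promoters. A match describes letters in this window, and its absence says nothing of binding elsewhere.

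The libraries held 26914124 to 46727182 counts. Of these the 9 genes took 0.0226% to 0.0277% in control and 0.0329% to 0.0371% in LKO 1, LKO 2 and LKO 3. In LKO 5 and LKO 4 they took 0.0446% and 0.0521%. These are shares of raw counts. With total counts as the scaling, genes in general lay higher in LKO, at a median log2 of 0.24. Lpcat3 had 94.1 to 123.9 CPM (counts scaled to library size with TMM factors) in controls and 25.5 to 38.5 CPM in LKO livers. The groups thus did not overlap in the deleted gene (log2 -1.79, SE 0.12; edgeR adjusted p = 0.000151). In the summed level of the 9 genes they did overlap, at 218 to 317 CPM in control and 289 to 527 CPM in LKO. All 8 hepatocyte markers checked, from Alb to Cyp2e1, were detected. All 8 had log2 values below 0 (median -0.48), where 49.5% of all genes lay above 0. At an unadjusted p under 0.05, 2 were lower, against 9.5% of all genes. In 1 the groups lay apart with LKO lower, against 2.23% of all genes. Their summed level was 59579 to 95499 CPM in control against 49952 to 72581 CPM in LKO. Control 4 lay apart from the other controls, at 30.2 on the first principal component against -52.7 to -30.1, and LKO 3 lay at 82.3 against -8.03 to 39.9 for the other LKO libraries. The thioesterase calls that change without control 4 are given below. Each title carries its own code of unstated meaning, such as A54N for control 1. The codes begin with A54, A55 or A67, and this first part is called the title code here. Only A54 occurs in both groups, for control 1, LKO 1 and LKO 2. A fit with the title code as a covariate thus takes the genotype difference from these libraries alone, with 1 control.

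Of the 9 genes, 0 passed an adjusted p of 0.05 (edgeR quasi-likelihood test, Benjamini-Hochberg over all genes), where 0.0657% of genes did. At an adjusted p under 0.1 the count was 1 of 9, Acot2, against 1.94% of genes. At an unadjusted p under 0.05, 4 of 9 were higher in LKO (Acot2, Acot13, Acot1 and Acot9) and 0 of 9 lower, against 12.8% and 9.5% of all genes. The log2 fold change was above 0 for 8 of 9, against 49.5% of all genes, and the median over the 9 was 0.38 against -0.0036 over all genes tested. Without control 4, Acot2 and Acot9 passed the adjusted threshold, with 2296 genes called in all against 10. DESeq2 called Acot1, Acot2 and Acot13 among 1186 genes, and limma voom with quality weights called Acot2, Acot9 and Acot13 among 2460.

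**Figure D1:**
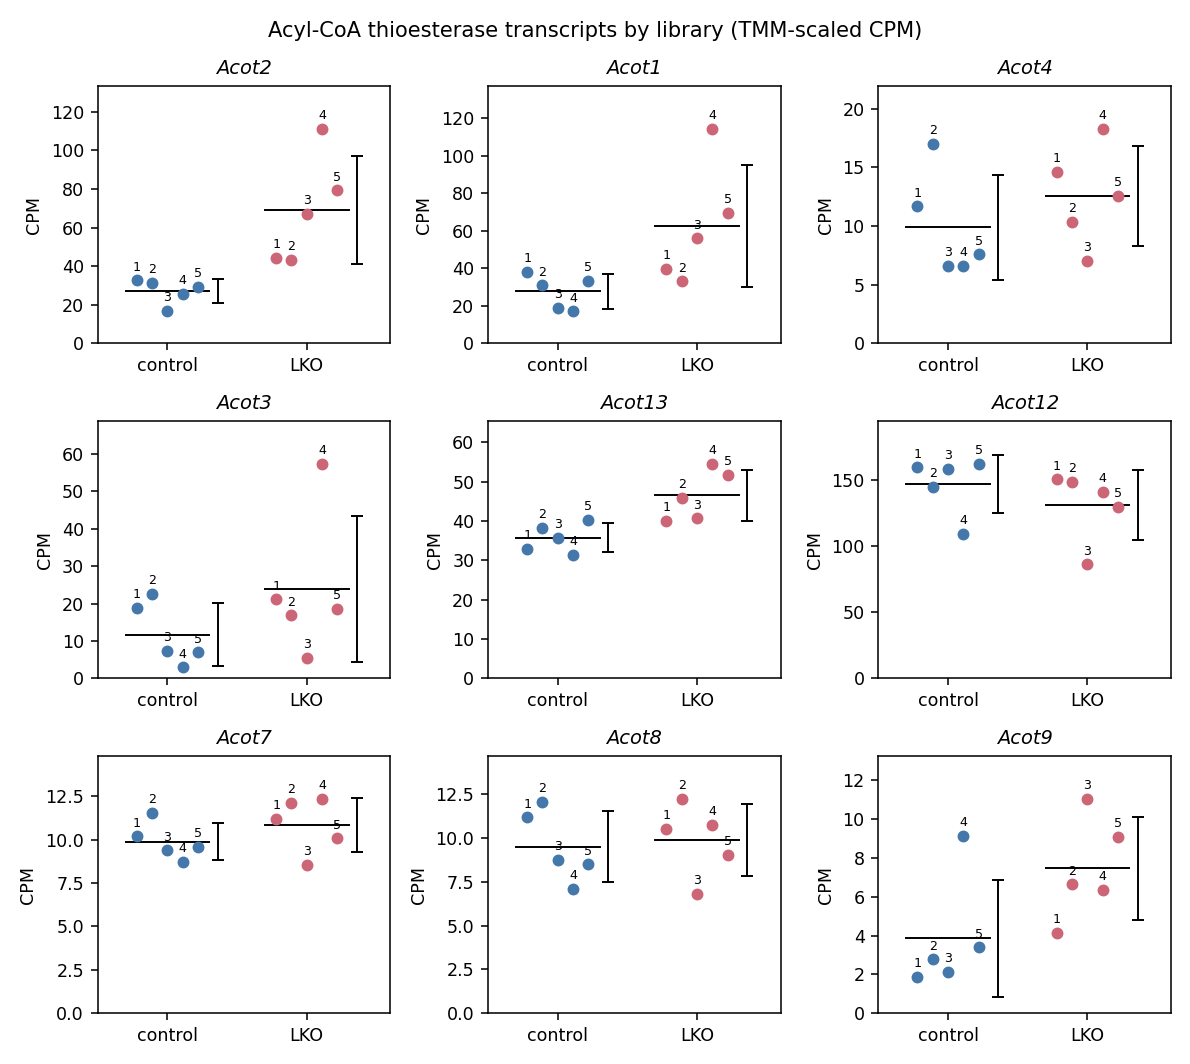
Transcript level of each acyl-CoA thioesterase gene in CPM (vertical axes, TMM-scaled) for 5 control and 5 LKO libraries. Points are libraries with their replicate number, lines are means and bars are SD. Acot2 is the only panel whose groups do not overlap, with controls up to 32.7 CPM and LKO libraries from 43.4 CPM.

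Acot2 (NCBI Gene 171210), the mitochondrial enzyme, hydrolyses long-chain acyl-CoA in the matrix. Controls 1 to 5 had 32.7, 31.4, 16.7, 25.6 and 29.2 CPM. LKO libraries 1 to 5 had 44.2, 43.4, 67.3, 111 and 79.3 CPM. Every LKO library lay above every control, which held for 1 of the 9 members and, with LKO higher, for 1.72% of all genes. The mean was 27.1 ± 6.41 CPM in control against 69.1 ± 28.1 CPM in LKO (SD, n = 5), a 2.55-fold ratio, with LKO 4 the highest and LKO 1 and LKO 2 the lowest of their group. The log2 fold change was 1.35 (SE 0.27; edgeR adjusted p = 0.0766, from 0.000264 with DESeq2 to 0.218 without control 3, the title code fit set aside). Within A54 the difference was smaller, at 32.7 CPM in the 1 control against 44.2 and 43.4 CPM, or 0.42 on the log2 scale. The title code as a covariate also gave 0.42, since only A54 holds both groups. The test passed without control 4 (log2 1.33, edgeR adjusted p = 0.0182) and without LKO 1 (log2 1.47, edgeR adjusted p = 0.0464).

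Acot1 (NCBI Gene 26897), the cytosolic relative, hydrolyses the same kind of long-chain substrate outside mitochondria. Controls 1 to 5 had 38.1, 30.9, 19.0, 17.0 and 33.3 CPM, and LKO libraries 1 to 5 had 39.6, 32.9, 55.9, 114 and 69.6 CPM. Here the groups overlapped, since LKO 2 lay below control 1 and control 5. Means were 27.6 ± 9.24 and 62.5 ± 32.3 CPM, and the log2 fold change was 1.18 (SE 0.34; edgeR adjusted p = 0.122). Within A54 the log2 difference was -0.071, and without LKO 4 the log2 fold change of all libraries was 0.83. With the counts of Acot1 and Acot2 summed, so that the split between them has no weight, control had 54.7 ± 14.9 CPM and LKO 132 ± 60.3 CPM (log2 1.26, SE 0.30; edgeR adjusted p = 0.0976). Acot1 held 39.9% of that sum in control 4 and 43.1% to 53.8% in the other 9 libraries.

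Acot3 (NCBI Gene 171281) and Acot4 (NCBI Gene 171282) encode peroxisomal enzymes, Acot3 for long-chain acyl-CoA and Acot4 for succinyl-CoA and other dicarboxylic acyl-CoA. Acot3 had the largest SE of the 9 genes. Its controls had 18.8, 22.6, 7.25, 2.90 and 6.91 CPM, and LKO libraries 1 to 5 had 21.1, 16.8, 5.51, 57.4 and 18.7 CPM. The groups overlapped throughout, apart from LKO 4, which lay far above the highest control, control 2. The log2 fold change was 1.04 (SE 0.62; edgeR adjusted p = 0.332) with all libraries, 0.41 without LKO 4 and 0.014 within A54. Acot4 had 9.88 ± 4.48 CPM in control against 12.6 ± 4.26 CPM in LKO (log2 0.35, SE 0.31; edgeR adjusted p = 0.518), with single libraries left out giving 0.17 (LKO 4) to 0.63 (control 2, edgeR adjusted p = 0.287). In GENCODE M21, exons of the antisense gene 4732463B04Rik cover 9.08% of Acot3 and 9.21% of Acot4 exons, and those of Gm49366, on the same strand, cover 11.5% of Acot3. The libraries were stranded, but the strand setting of the counting was not stated. Whether the counts kept reads within the antisense overlap apart by strand is thus unknown. On the same strand, reads within the overlap with Gm49366 cannot be told apart under any strand setting.

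Acot8 (NCBI Gene 170789, chromosome 2), the remaining peroxisomal member, accepts a broad range of acyl-CoA and bile acid-CoA esters. It had 9.52 ± 2.04 CPM in control against 9.88 ± 2.05 CPM in LKO, a log2 fold change of 0.055 (SE 0.18; edgeR adjusted p = 0.874) whose sign turned negative without control 4 (-0.034) or without LKO 2 (-0.035). Controls ranged from 7.09 to 12.0 CPM and LKO libraries from 6.82 to 12.2 CPM, so the ranges nearly coincided. Exons of Snx21 on the opposite strand overlap 12.3% of Acot8 exons.

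Acot13 (NCBI Gene 66834, chromosome 13), also called Them2, is a small long-chain thioesterase that associates with mitochondria and with the phosphatidylcholine transfer protein. Controls had 33.0, 38.2, 35.7, 31.4 and 40.3 CPM, and LKO libraries had 40.1, 45.9, 40.7, 54.6 and 51.7 CPM. The groups met at a single point, where LKO 1 lay just below control 5. Means were 35.7 ± 3.67 and 46.6 ± 6.47 CPM, a 1.30-fold ratio with a log2 fold change of 0.38 (SE 0.11; edgeR adjusted p = 0.115). Leaving out single libraries gave 0.31 (LKO 4) to 0.43 (LKO 1), and within A54 the log2 difference was again 0.38.

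Acot9 (NCBI Gene 56360, chromosome X), a mitochondrial type II thioesterase, was low in controls apart from 1 library. Controls 1, 2, 3 and 5 had 1.89, 2.77, 2.13 and 3.40 CPM, and control 4 had 9.12 CPM. LKO libraries 1 to 5 had 4.15, 6.64, 11.05, 6.36 and 9.11 CPM. Control 4 thus lay among the LKO libraries, and the other controls lay below all of them. The log2 fold change was 0.95 (SE 0.42; edgeR adjusted p = 0.219) with all libraries and 1.54 (edgeR adjusted p = 0.0107) without control 4. Within A54 it was 1.51, from 1.89 CPM in the control against 4.15 and 6.64 CPM. Markers of several other cell types were also higher in control 4 than in the other controls. Summed Kupffer cell markers (212 CPM in control 4, up to 250 CPM in the other controls) and endothelial markers (292 and up to 340 CPM) were not. All 8 recruited macrophage markers had log2 values above 0, against 49.5% of all genes, with 4 higher at an unadjusted p under 0.05, against 12.8%, and no marker at 0. Their summed level was 84.3 to 113 CPM in controls 1, 2, 3 and 5, 438 CPM in control 4 and up to 775 CPM in LKO, where every library lay above those 4 controls. Summed neutrophil markers had 7.70 CPM in control 4, at most 3.93 CPM in the other controls and 5.87 to 10.4 CPM in LKO. Lymphocyte markers had 2.10, at most 1.59 and 1.64 to 3.50 CPM in the same order. Of the neutrophil sum in control 4, Csf3r made up 6.64 CPM. There S100a8 (0.613 CPM) lay below every LKO library (lowest 0.754 CPM), and S100a9 (0.451 CPM) just above the lowest (0.437 CPM). Cholangiocyte markers (157 CPM in control 4, at most 32.3 CPM in the other controls, 28.0 to 361 CPM in LKO) and stellate markers (383, at most 251 and 240.2 to 378 CPM) were high in control 4 too, with LKO ranges that overlapped the other controls. Reln made up 246 CPM of the stellate sum in control 4. In Des, Lrat, Pdgfrb and Col1a1 every LKO library lay above controls 1, 2, 3 and 5, in Lrat narrowly (47.2 against 47.1 CPM). In Reln and Acta2 LKO libraries overlapped those controls. The cholangiocyte sum was mostly Spp1, at 145 CPM in control 4 and 316 CPM in LKO 3, a gene also in the recruited macrophage list. In control 4, Krt19, Krt7, Epcam and Sox9 had 1.19, 1.13, 3.32 and 7.25 CPM, each the highest control. The part of these markers in the Acot9 difference was not tested. In whole liver, fewer cells of a type and less RNA per cell cannot be told apart.

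Acot12 (NCBI Gene 74156, chromosome 13) and Acot7 (NCBI Gene 70025, chromosome 4) act in the cytosol. Acot12, which hydrolyses acetyl-CoA, was the only member with a negative log2 fold change, at -0.16 (SE 0.16; edgeR adjusted p = 0.566). It had 147 ± 22.0 CPM in control against 131 ± 26.5 CPM in LKO. Control 4 (109 CPM) and LKO 3 (86.3 CPM) were the lowest, while the other 8 libraries lay between 130 and 162 CPM. The summed hepatocyte markers were also lowest of their group in control 4 (59579 CPM) and LKO 3 (49952 CPM), and their part in the Acot12 values was not tested. With total counts as the scaling its log2 value was 0.074, where the median of all genes moved to 0.24. Exons of the antisense gene 4833422C13Rik cover 4.52% of its exons. Acot7, a long-chain thioesterase best known from brain, had 9.88 ± 1.05 CPM in control against 10.9 ± 1.56 CPM in LKO (log2 0.14, SE 0.12; edgeR adjusted p = 0.511), with overlapping ranges of 8.74 to 11.5 and 8.56 to 12.3 CPM.

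**Figure D2:**
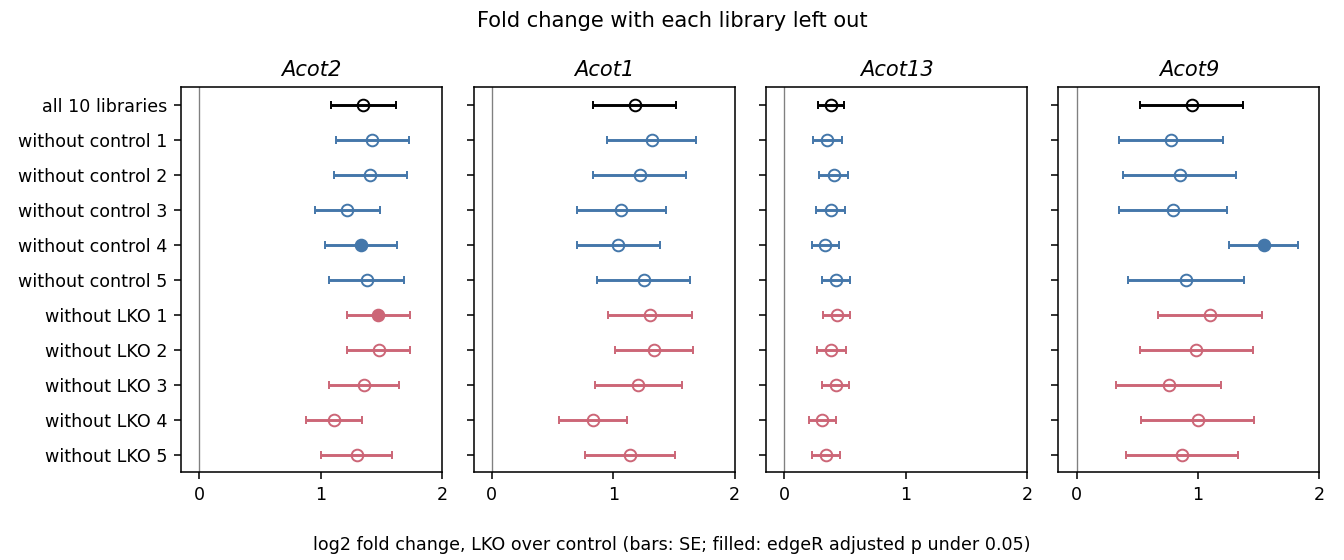
Log2 fold change of LKO over control (horizontal axes) for Acot2, Acot1, Acot13 and Acot9 with all libraries (black) and with each control (blue) or LKO library (red) left out; bars are SE from edgeR, and filled points have an adjusted p under 0.05. All values stay above 0, Acot2 lies lowest without LKO 4 (1.11), and Acot9 stands out without control 4 (1.54).

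Levels can be compared between genes per length of transcript. In controls Acot13 (49.5 ± 5.09 CPM per kb) and Acot12 (48.1 ± 7.21 CPM per kb) were highest, with overlapping ranges. Acot2 and Acot1 followed at 12.3 ± 2.92 and 12.2 ± 4.07 CPM per kb, below the range of Acot12. Next came Acot8 (8.26), Acot7 (6.57), then Acot3 (3.41), Acot9 and Acot4 (1.59 CPM per kb), each overlapping its neighbour. In LKO livers the order of the means was the same, at 64.6 ± 8.98 for Acot13, 43.0 ± 8.65 for Acot12, 31.5 ± 12.8 for Acot2 and 27.5 ± 14.2 CPM per kb for Acot1. There the ranges of Acot12 and Acot2 overlapped and those of Acot13 and Acot12, and of Acot1 and Acot8, did not. The share of the summed level held by Acot2 was 8.55% ± 1.73 in control and 15.7% ± 3.91 in LKO, and that of Acot12 was 33.3% ± 3.30 and 22.4% ± 5.54 (SD, n = 5). The summed level itself was 144 ± 17.3 CPM per kb in control and 196 ± 42.1 CPM per kb in LKO, so each share also depends on the other members. Acot12 itself had 48.1 and 43.0 CPM per kb. Lengths are those of the longest coding transcript in GENCODE M21, and another choice of transcript would move these levels.

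**Figure D3:**
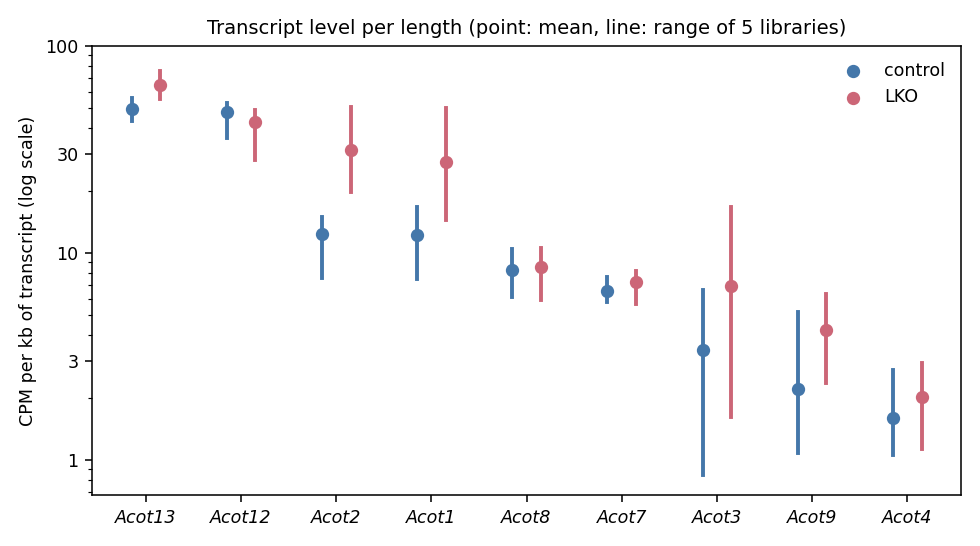
Level of each gene in CPM per kb of transcript (vertical axis, log scale) in control and LKO livers, ordered by the control mean; points are means and lines span the lowest to highest of 5 libraries. Acot13 and Acot12 lie at the top in both groups, and Acot2 and Acot1 show the largest upward distance between groups in mean CPM per kb.

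Across the 10 libraries the members did not vary as a block. Log2 CPM of Acot1 and Acot2 had a Pearson correlation of 0.95 (0.91 with the group means removed), and these genes share sequence windows. Acot3 and Acot4 had 0.93 (0.93 with group means removed), and Acot7 and Acot8 had 0.91 (0.94). Acot9 and Acot12 had -0.78 (-0.79), with control 4 and LKO 3 high in Acot9 and low in Acot12. These values describe 10 libraries that also differ in depth and in cell type markers. Among 13268 other genes with a mean of at least 1 CPM, those most like Acot2 over the 10 libraries were Lpin2 (0.96), a phosphatidic acid phosphatase gene, Ppp1r3g (0.96), a glycogen-targeting subunit gene, Ggct (0.94) and the histone genes H2bc23 and H4bc24 (both 0.94), whose counts were the same in every library. Those most like Acot13 were Pigp (0.94), Cyp4a31 (0.94), Cyp4a10 (0.94), D7Ertd143e (0.93) and Cyp4a14 (0.93). The Cyp4a genes encode omega-hydroxylases of fatty acids and form a multigene family, and reads shared between its members were not examined.

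Other genes that hydrolyse acyl-CoA or break down coenzyme A esters were taken as a list beside the 9. Of 18 listed, 15 were tested, and 0 passed over all genes (edgeR adjusted p). Their median log2 fold change was -0.12, with 4 above and 11 below 0. At an unadjusted p under 0.05, 0 were higher and 5 lower, against 12.8% and 9.5% of all genes. Nudt7, a peroxisomal diphosphatase that cleaves coenzyme A and its esters, had 282 ± 66.0 CPM in control against 134 ± 60.7 CPM in LKO (log2 -1.07, SE 0.33; edgeR adjusted p = 0.130), and its groups did not overlap. Nudt19, of the same activity, had 19.8 ± 1.97 and 15.7 ± 0.976 CPM (log2 -0.34; edgeR adjusted p = 0.103), also without overlap, where 2.23% of all genes lay apart with LKO lower. Acot11, a type II thioesterase with a lipid-binding START domain, had 28.5, 28.1, 25.6, 10.8 and 23.7 CPM in controls 1 to 5 and 5.68 to 16.7 CPM in LKO (log2 -1.04, SE 0.30; edgeR adjusted p = 0.122). Control 4 lay within the LKO range. Without it Acot11, Nudt7 and Nudt19 passed (edgeR adjusted p = 0.0131, 0.0448 and 0.0230), among 2296 of 15327 genes. Baat, which joins bile acid-CoA to amino acids, had 115 ± 17.2 and 88.6 ± 14.8 CPM (edgeR adjusted p = 0.158). The 8 hepatocyte markers also had log2 values below 0, and their part in these differences was not tested. Whether the 9 genes differ from this list as a set was not tested. Exons of Fam151a on the opposite strand cover 20.9% of Acot11 exons.

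**Figure D4:**
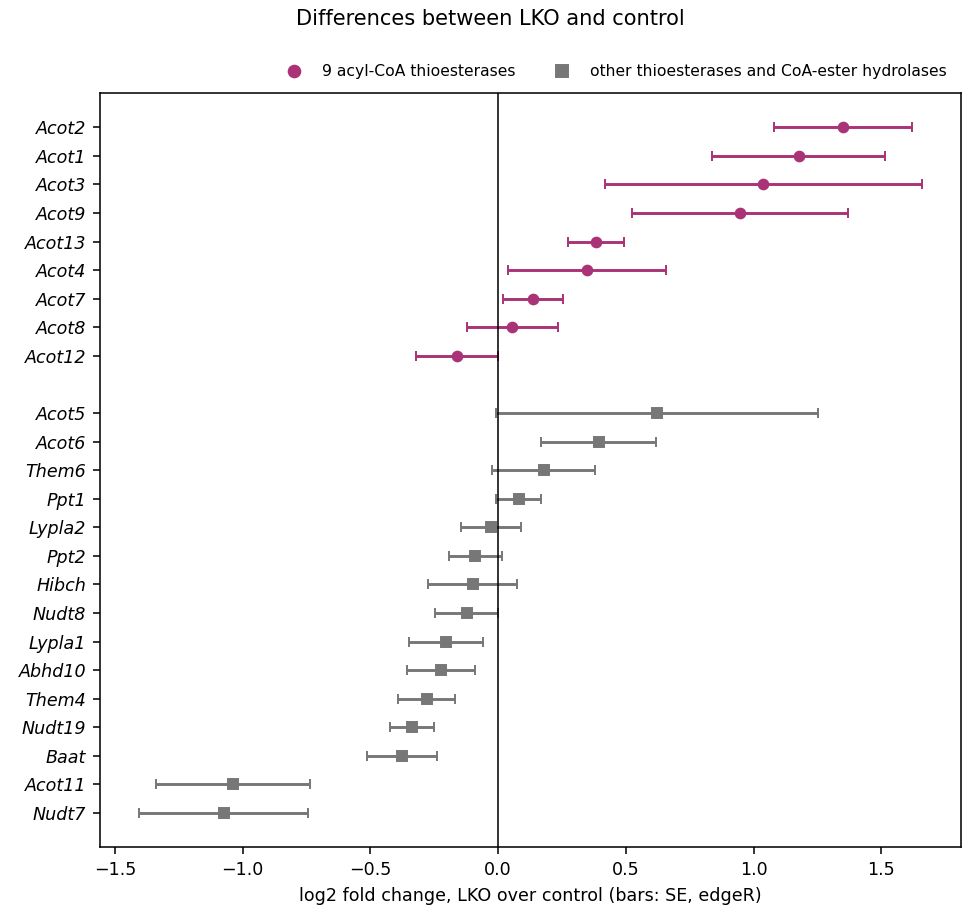
Log2 fold change of LKO over control (horizontal axis, bars are SE from edgeR) for the 9 acyl-CoA thioesterases (circles) and the 15 tested other thioesterases and CoA-ester hydrolases (squares). Of the circles 8 lie above 0, from 0.055 to 1.35, and of the squares 11 lie below 0, down to -1.07 for Nudt7.

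On the supply side, the acyl-CoA synthetases and fatty acid transport proteins had a median log2 fold change of 0.036 over 17 tested genes. At an unadjusted p under 0.05, 4 of 17 were higher and 0 lower, against 12.8% and 9.5% of all genes. In control Acsl3 had 29.0 ± 5.02 CPM, against 48.8 ± 5.35 CPM in LKO, with no overlap (log2 0.75; edgeR adjusted p = 0.0521), and Acsl5 had 311 ± 40.7 and 452 ± 98.4 CPM (edgeR adjusted p = 0.119). Slc27a1 and Acsl4 had log2 fold changes of 0.73 and 0.61. Without control 4, Acsl3 and Acsl4 passed (edgeR adjusted p = 0.0109 and 0.0396), among 2296 of 15327 genes. Acsl3 also passed without LKO 1 (edgeR adjusted p = 0.0464), where 86 genes passed in all. In the carnitine route, which competes for the same acyl-CoA, the acetyltransferase gene Crat had 69.9 ± 19.4 and 115 ± 13.4 CPM with no overlap (log2 0.72; edgeR adjusted p = 0.0999, or 0.0152 without control 4). The carnitine transporter gene Slc22a5 (0.41), Cpt1a (0.21) and Crot (0.15) had smaller log2 values, and 2 of 6 tested genes were higher at an unadjusted p under 0.05, against 12.8% of all genes. Among 11 genes of coenzyme A synthesis and salvage the median was -0.084, with 0 higher and 2 lower at that level, against 12.8% and 9.5% of all genes. Those with the smallest p were Enpp1 (-0.22), the carriers Slc25a16 (-0.41) and Slc25a42 (-0.35), and Vnn1 (0.31), the pantetheinase gene.

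Listed targets of PPARalpha outside the family had a median log2 fold change of 0.31 over 39 tested genes, with 33 above 0, against 49.5% of all genes. Of the 39, 16 were higher and 0 lower at an unadjusted p under 0.05, against 12.8% and 9.5% of all genes. In 6 the groups did not overlap, with LKO higher, against 1.72% of all genes. At the adjusted threshold 0 passed, where 0.0657% of all genes did. Cyp4a31 had 17.9 ± 3.54 CPM in control against 41.8 ± 14.7 CPM in LKO, and Txnip, of redox control, 97.9 ± 22.9 and 159 ± 9.50 CPM, both without overlap (edgeR adjusted p = 0.0766 and 0.0862). Cyp4a14 had 61.7 ± 61.0 and 401 ± 230 CPM (log2 2.70, or 3.52 without control 5), and Pdk4, which restrains pyruvate oxidation, 7.69 ± 5.91 and 32.7 ± 20.5 CPM (edgeR adjusted p = 0.0921 and 0.0999). The highest values of Cyp4a31 and Cyp4a14, like those of Acot1 to Acot4, were in LKO 4 (63.9 and 675 CPM), while Pdk4 was highest in LKO 3 (63.4 CPM). In peroxisomal oxidation 3 of 16 genes were higher and 2 lower at an unadjusted p under 0.05, against 12.8% and 9.5% of all genes. Ehhadh, the bifunctional enzyme gene, had 239 ± 69.8 and 434 ± 122 CPM with no overlap (log2 0.86; edgeR adjusted p = 0.108). Abcd2 (1.01), Acaa1b (0.59) and Pecr (-0.63) were the others with the smallest p. Without control 4, 2296 of 15327 genes passed. Among them were Cyp4a31, Txnip, Cyp4a14 and Pdk4 (edgeR adjusted p = 0.0143, 0.0225, 0.0306 and 0.00840), and Ehhadh, Abcd2 and Pecr (edgeR adjusted p = 0.0463, 0.0130 and 0.0353). Cyp4a31 also passed without LKO 3 (edgeR adjusted p = 0.0493), where 11 genes passed in all.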

How the data were processed

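Liver RNA from frozen tissue was depleted of ribosomal RNA, made into stranded libraries and read from 1 end for 101 cycles, per the labels' protocols. The deposited table holds whole-number counts per gene and library, made by the authors and not normalized. Build GRCm39, bcl2fastq 2.20 and DESeq2 are listed by the submitters' processing notes. The aligner, counter, strand setting and annotation of the counting were not stated. Symbols came from RefSeq (GRCm38.p6) for 25275 of 27179 genes, used for names, and upstream sequences from its promoter table. Lengths, overlaps and shared windows came from GENCODE M21 (GRCm38). Columns not used numbered 0.

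LKO was compared with control by edgeR 4.0.16 under R 4.3.3 (filterByExpr, TMM, quasi-likelihood F test with the legacy option, two-sided, genotype as the only term, Benjamini-Hochberg over 15226 genes, threshold 0.05). SE is the log2 fold change over the root of its F. Log2 CPM used a prior count of 2. Within groups, each pair of libraries differed beyond counting noise (lowest chi-square per degree of freedom 34.5). Alternatives were other scalings, filters and tests (DESeq2 1.42.0, limma 3.58.1 voom), a replicate block, the title code, and leaving out libraries. Leaving out control 4 with LKO 4 was added after seeing the data. Scripts were tested on simulated data. Members and lists were chosen with earlier results of these data known. The text names Lpcat3, all 9 members, up to 4 genes per list with the smallest p, and the 5 genes most like each of the 2 members with the smallest p. Markers, overlapping genes and Cyp4a10 are named besides. Marker lists other than those of hepatocytes and recruited macrophages gave, in LKO, unadjusted p under 0.05 and higher for 1 of 5 Kupffer, 3 of 6 stellate, 3 of 5 endothelial, 3 of 5 cholangiocyte, 1 of 4 lymphocyte and 3 of 3 neutrophil markers, with 0 lower, against 12.8% higher and 9.5% lower of all genes. Figures were drawn with matplotlib 3.10.9.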

Additional observations from a re-analysis of the deposited data

Results flagged for a closer look

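In 42 named genes, each group of 5 libraries was checked for a library far from the rest by Dixon's test at the 95% level, which flags about 5% of groups by chance. Of 84 groups, 7 held such a library, all of them controls. Control 4 was the highest control in Acot9 (9.12 CPM, next 3.40 CPM) and Pdk4 (18.1 CPM, next 7.17 CPM). It was the lowest control in Acot11 (10.8 CPM, next 23.7 CPM) and Slc25a16 (39.7 CPM, next 52.7 CPM). Control 5 was the highest control in Cyp4a14 (169 CPM, next 45.8 CPM) and D7Ertd143e (8.05 CPM, next 4.32 CPM). Control 3 was the lowest control in Ppp1r3g (1.11 CPM). LKO 4, the highest library in Acot1 to Acot4, did not meet this criterion in any of them.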

How the results depend on the processing

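The number of genes called, 10, was 31 with a filter of at least 1 count and 20 with a filter of 1 CPM in 5 libraries. It was 1186 with DESeq2, 2460 with voom, 2 with the replicate block and 0 with the title code as a covariate. At an unadjusted edgeR p under 0.05, the title code fit gave 760 of 15226 genes, against 3402 without the covariate. The number called was 296 at an adjusted p under 0.1, and 1992 without control 4 and LKO 4. Leaving out single libraries gave 2 to 2296, with 86 without LKO 1, 5 without control 2 or LKO 2, 4 without control 5, and 2 without control 1, control 3, LKO 4 or LKO 5. The count of the 9 thioesterases called, 0 with all libraries, was 3 with DESeq2 and with voom, 1 at an adjusted p under 0.1, 2 without control 4 and LKO 4, and 0 to 2 with single libraries left out (2 without control 4, 1 without LKO 1). Lpcat3 stayed lower in LKO under all settings run. It missed the threshold with the title code alone (log2 -1.99), a fit that rests on A54 with 1 control. Signs turned for Acot1 (-0.072) and Slc27a1 (-0.040) with the title code, for Acot12 (0.074) and Enpp1 (0.019) with total counts, where the median of all genes moved by 0.24, and for Acot8 without the A54 libraries (-0.038), without control 4 and LKO 4 (-0.069), and with single libraries left out (-0.035 to 0.16, below 0 without control 4 or LKO 2). With total counts the calls split 9 higher and 3 lower, against 4 and 6 with TMM. The causes were not tested. Acot2 kept its sign under all settings run, from 0.42 to 1.74. Nothing in the labels pairs libraries by replicate number: same-numbered libraries correlated at 0.42, 0.21, -0.23, -0.40 and -0.02, and 1 of 5 controls matched its own number best. With the replicate block 0 of the 9 genes passed, with Acot2 at 1.30 (edgeR adjusted p = 0.165).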

Other observations

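The remaining type I genes had low counts. Acot5 had 0.405 ± 0.348 CPM in control against 0.612 ± 0.385 CPM in LKO, and Acot6 had 0.741 ± 0.168 and 0.976 ± 0.146 CPM (edgeR adjusted p = 0.575 and 0.311). Acot5 was highest in LKO 4 (1.15 CPM), as were Acot1 to Acot4, and lowest in control 4 (0.0645 CPM), while Acot6 was highest in LKO 3 (1.18 CPM). Acot10, the close relative of Acot9, had 13 counts over all 10 libraries and was not tested. With the counts of Acot1 to Acot6 summed, the 6 genes had 77.5 ± 25.7 CPM in control against 169.6 ± 80.0 CPM in LKO (log2 1.13, SE 0.31; edgeR adjusted p = 0.110).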
